A study of Mus musculus with 3 samples.

Results

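Genes of chondrocytes and osteoblasts other than collagens were followed on 3 two-colour microarrays that set RNA of mutant mouse cortex against wild-type cortex. The 10 genes were taken by symbol, with older symbols updated: Sox9, Acan, Matn1, Matn3, Comp and Hapln1 for chondrocytes, and Runx2, Sp7, Ibsp and Alpl for osteoblasts. All 10 were on the array, by 13 probes, among 19909 genes with a symbol. Each array compared cortices of Snf2l-Ex6DEL mice, which lack exon 6 of the chromatin remodeller gene Snf2l (now Smarca1), with cortices of wild-type controls, both of 129Sv background and dissected at E15.5, an embryonic stage of cortical neurogenesis. RNA came from 2 samples of each genotype. Replicates 1 and 2 set the same RNAs against each other with the dyes exchanged, and are called pair 1. Replicate 3 compared the other RNAs and is pair 2, so that n = 2 pairs. Litters, sex and pooling of embryos are not given in the sources used here.

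Cartilage is built by chondrocytes, which differentiate under the transcription factor Sox9 and fill the space around them with collagen fibrils and with aggregates of the proteoglycan aggrecan. Bone is laid down by osteoblasts, which depend on the transcription factors Runx2 and Sp7 (osterix) and secrete a matrix that mineralises. Neither tissue is part of the cortex, while the cartilage and bone of the skull base and vault develop close to it. Some of these genes are also used by the brain itself: Sox9 marks radial glia and astrocytes, and aggrecan and link protein belong to nets around neurons.

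Values are log2 ratios of both channels of an array, so that -1 is a 2-fold and -4 a 16-fold lower signal. A value below 0 is read as lower in the mutant. That direction is likely but not stated: the labels name mutant second on each array, and with the ratio formed the other way round every sign would turn. A second limit concerns spots at 1 frequent value per array, 0.009, 0 and 0.001 on replicates 1 to 3, which 11.7%, 16.6% and 21.9% of the 38880 probes shared. These spots are read as not measured. Of the 39 values of the 13 member probes, 12 were of this kind, 2 on replicate 1 and 5 on each of the other two arrays. A ratio also holds no level, so whether a marker of cortex, cartilage or bone was present in a sample could not be checked. In such tissue samples, fewer cells of a type and less RNA per cell cannot be told apart.

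In pair 1 most of the cartilage and bone genes read low in the mutant, several of them by 4 or more on the log2 scale. In pair 2 Matn3 and Hapln1 read low, while the others were near 0, above it or without a measurement. The medians of the 10 genes, with probes of a gene averaged, were -4.54 on replicate 1, -1.54 on replicate 2 and 0.06 on replicate 3. The medians of all 28332 features were 0.009, 0 and 0.001. Over measured values alone the medians of the 10 genes were -4.54, -4.46 and 0.35. On both arrays of pair 1, 5 of 10 genes (Acan, Matn1, Comp, Ibsp and Alpl) were at least 1.5-fold lower, as were 9.17% of all features, and 0 were at least 1.5-fold higher, against 5.55%. Without replicate 2 the count was 8, since Matn3, Hapln1 and Sp7 were low on replicate 1 and at the most frequent value on replicate 2. The share of all features this low on replicate 1 alone was not counted, and the 9.17% is for both arrays. On replicate 3, 2 genes (Matn3 and Hapln1) were at least 1.5-fold lower and 3 (Acan, Matn1 and Sp7) at least 1.5-fold higher, beside 22.3% and 19.5% of all features. None of the 10 was 1.5-fold to one side on all 3 arrays, which 2.85% of features were. The fit over the pairs called 0 of the 10 genes and 0 of 28332 features (0%) at an adjusted p of 0.05 (limma, Benjamini-Hochberg). At an unadjusted p of 0.05 it gave 1 of the 10, Hapln1, and 2.52% of all features.

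**Figure D1:**
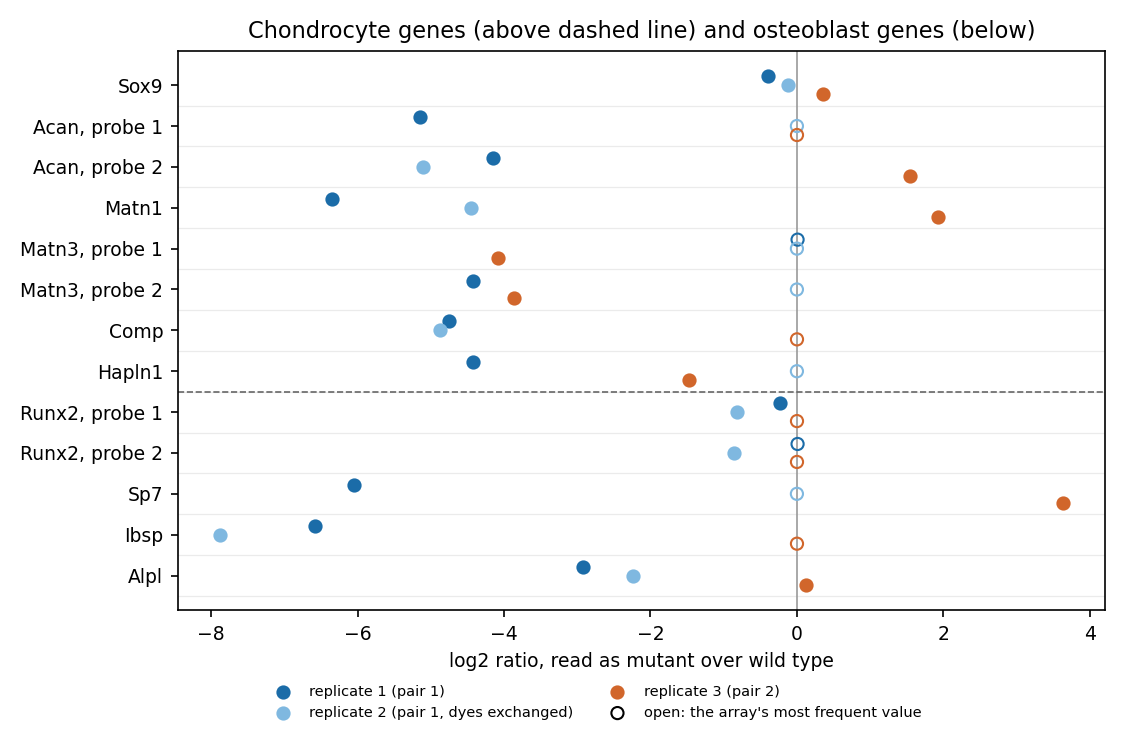
Log2 ratio (horizontal axis) of each member probe (rows) on each of the 3 arrays (colours), with open circles for values at the array's most frequent value. Replicate 1 lies at -4 or below for 8 probes, while replicate 3 lies between -4.09 and 3.63.

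Sox9, the transcription factor that directs cells into the chondrocyte lineage and also acts in radial glia, lay near 0. It read -0.40 and -0.115 in pair 1 and 0.35 in pair 2. The mean over both pairs was 0.05 ± 0.30, where ± gives the moderated SE of limma with n = 2 pairs, and limma's adjusted p = 0.997. It was the chondrocyte member nearest to 0 on replicate 1, where 29.5% of all probes read lower.

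Runx2, the factor required for osteoblast formation, had 2 probes. They read -0.23 and 0.009 on replicate 1, -0.825 and -0.87 on replicate 2, and 0.001 each on replicate 3. The 0.009 and both 0.001 are most frequent values, which leaves pair 2 with no measurement and replicate 1 with a single one. The mean was -0.24 ± 0.27 (moderated SE, limma's adjusted p = 0.854), in a fit that took these spots as values. With such spots left out, pair 1 alone gave -0.54, without SE or p-value. Sp7, the zinc finger factor downstream of Runx2 in osteoblasts, read -6.05 on replicate 1 and 3.63 on replicate 3, with 0.203% and 98.8% of the probes of those arrays lower. Its value on replicate 2 was 0, the most frequent one, so the low ratio of replicate 1 had no counterpart in the dye exchange. The mean of 0.30 ± 2.31 (moderated SE, limma's adjusted p = 0.997) lies between values on opposite sides of 0.

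Acan encodes aggrecan, the large chondroitin sulphate proteoglycan that holds water in cartilage. The first of its 2 probes read -5.15 on replicate 1 and was at the most frequent value on the other arrays. The second read -4.15 and -5.11 in pair 1 and 1.54 in pair 2. Where measured, both probes were below -4 in pair 1, and the single measured value of pair 2 was above 0. Averaged over its probes Acan had a mean of -1.42 ± 1.53 (moderated SE, limma's adjusted p = 0.852). Hapln1, the link protein that fixes aggrecan to hyaluronan, read -4.42 on replicate 1, 0 on replicate 2 and -1.47 on replicate 3. Its mean was -1.84 ± 0.33 (moderated SE, limma's adjusted p = 0.852). Before adjustment limma gave it a p-value of 0.0286. The low SE comes from averaging the -4.42 with the 0 of replicate 2, which is that array's most frequent value. With such spots left out the mean was -2.95.

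Matn1 and Matn3 encode matrilins, adaptor proteins of the cartilage matrix. Matn1 read -6.35 and -4.46 in pair 1 and 1.93 in pair 2. On the pair 1 arrays 0.165% and 0.898% of probes were lower than it, and on replicate 3 it was 95.0%. Its mean was -1.74 ± 2.55 (moderated SE, limma's adjusted p = 0.879). Matn3 did not share this pattern. Its first probe had a measured value on replicate 3 alone, -4.09. The second read -4.42 on replicate 1, 0 on replicate 2 and -3.87 on replicate 3. Matn3 was therefore low in pair 2 by both probes, and low in pair 1 on 1 array by 1 probe. The mean was -2.54 ± 1.02 (moderated SE, limma's adjusted p = 0.852). The -4.09 corresponds, within 0.001, to a ratio of 17 to 1 from the most frequent value, and 30.9% of the 136 probes between 4 and 4.2 from that value on replicate 3 lay at such a whole-number ratio. Comp, a pentameric matrix protein of cartilage and tendon, read -4.75 and -4.875 in pair 1, and its 0.001 on replicate 3 is no measurement. Its pair 1 values differed by 0.127, the smallest gap among the members. The mean was -2.41 ± 1.68 (moderated SE, limma's adjusted p = 0.852), in a fit that took this 0.001 as a value. With such spots left out, pair 1 alone gave -4.81, without SE or p-value.

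Ibsp encodes bone sialoprotein, an acidic phosphoprotein of mineralising matrix. It read -6.585 on replicate 1 and -7.88 on replicate 2, the lowest values of the 10 genes on each of these arrays, and 0.001 on replicate 3. Only 0.129% and 0.036% of probes were lower in pair 1, while pair 2 gave no measurement. Its mean was -3.62 ± 2.51 (moderated SE, limma's adjusted p = 0.852). That fit took the 0.001 of replicate 3 as a value. With such spots left out, pair 1 alone gave -7.23, without SE or p-value. Alpl, the tissue-nonspecific alkaline phosphatase that removes an inhibitor of mineralisation, read -2.92 and -2.24 in pair 1 and 0.12 in pair 2. Outside bone this enzyme is also made by other tissues, brain included. The mean was -1.23 ± 0.96 (moderated SE, limma's adjusted p = 0.852).

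Where both arrays of pair 1 had measured a member, they differed about as much as for other probes. Among the 7 member probes with a measured value on both, the median gap between replicates 1 and 2 was 0.67, beside 0.66 over 30108 probes of any gene. Many low values had no such partner, however. Of the 8 member probes at -4 or below on replicate 1, 4 were at -4 or below on replicate 2 as well and 4 were at its most frequent value. Among all 547 probes this low on replicate 1 (1.41% of the array), these shares were 26.3% and 30.0%, and 10.6% were at 1 or above on replicate 2, where 0 member probes were. On replicate 3, 3 of the 8 member probes were at its most frequent value, 3 at least 1.5-fold higher and 2 at least 1.5-fold lower, close to the shares of 37.5%, 30.5% and 18.6% among all 547 probes.

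**Figure D2:**
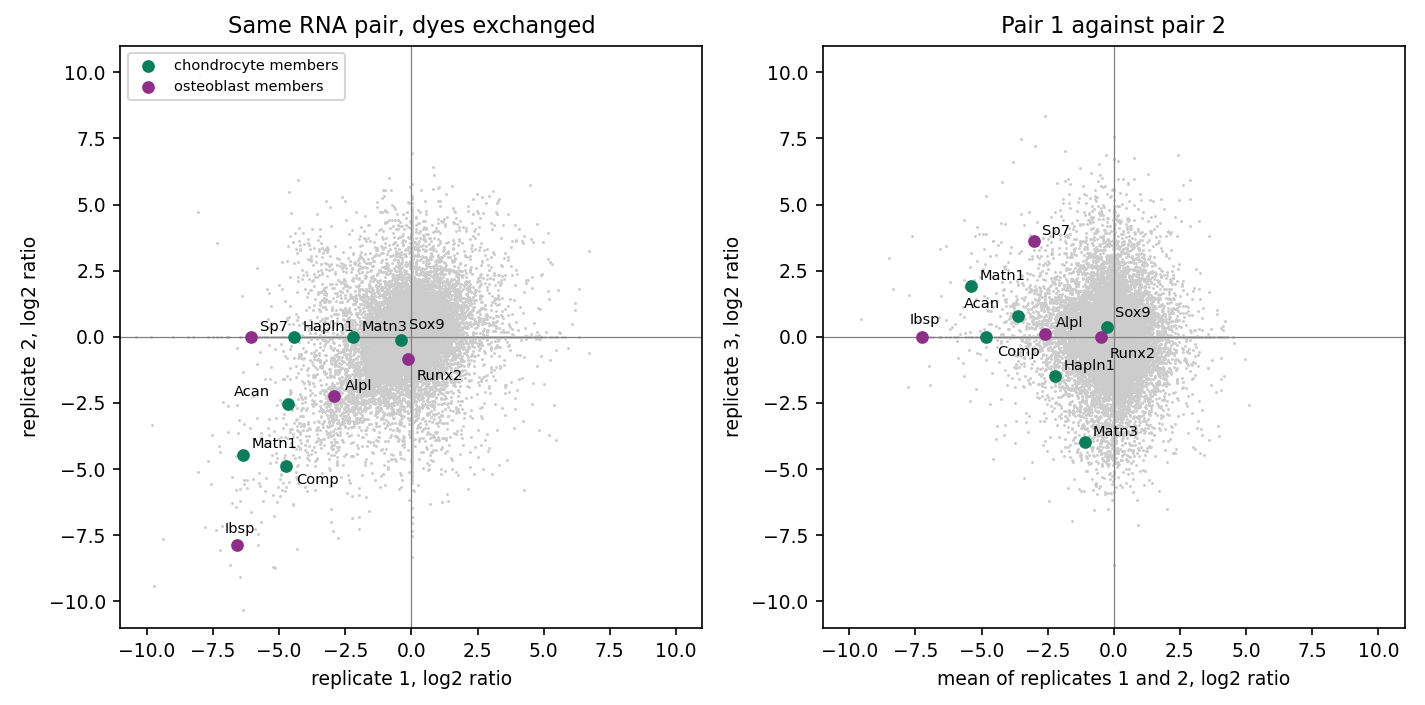
Log2 ratios of all 28332 features (grey) and of the 10 members (coloured), with replicate 2 against replicate 1 on the left and replicate 3 against the mean of replicates 1 and 2 on the right. Acan, Matn1, Comp, Ibsp and Alpl lie low on both axes on the left, while members on a line at 0 include values at the most frequent value of that array.

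Acan and Matn1 were at least 1.5-fold lower on both arrays of pair 1 and at least 1.5-fold higher in pair 2, as were 2.71% of all features. Comp and Ibsp had no measurement in pair 2, and Alpl and Sox9 were within 1.5-fold of equal signal there. Pair 2 is a single array without a dye exchange, so the difference between the pairs could not be tested.

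The start regions of 5 genes are shown to set the genes with low pair 1 ratios (Acan, Matn1, Ibsp and Alpl) beside Runx2, which read -0.23 and 0.009 on replicate 1 and -0.825 and -0.87 on replicate 2. Of the 10 members, 7 have a window in the RefSeq table of assembly GRCm38.p6, each running from 250 bases before to 50 after a gene's start. Alpl has 2, of which the upstream one is printed. Capitals mark 3 motifs, the binding cores of SOX and RUNX factors and the box bound by Sp proteins: the SOX core ACAAAG or ACAATG, the RUNX core TGTGGT or TGCGGT, and the GC box GGGCGG, each on either strand, where neighbouring matches may overlap.
Acan, chr7:79052976-79053275, + strand: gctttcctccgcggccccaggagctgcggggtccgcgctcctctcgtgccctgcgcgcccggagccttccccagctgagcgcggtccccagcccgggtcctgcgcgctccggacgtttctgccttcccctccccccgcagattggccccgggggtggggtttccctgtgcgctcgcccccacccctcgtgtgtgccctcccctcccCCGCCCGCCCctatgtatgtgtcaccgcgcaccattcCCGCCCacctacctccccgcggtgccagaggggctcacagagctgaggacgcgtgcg
Matn1, chr4:130944135-130944434, + strand: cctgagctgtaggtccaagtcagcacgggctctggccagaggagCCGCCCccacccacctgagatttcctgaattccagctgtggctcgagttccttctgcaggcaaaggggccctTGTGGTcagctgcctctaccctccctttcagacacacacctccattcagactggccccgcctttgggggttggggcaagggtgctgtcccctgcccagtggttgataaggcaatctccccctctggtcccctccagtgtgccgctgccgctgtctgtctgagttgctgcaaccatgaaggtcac
Ibsp, chr5:104299037-104299336, + strand: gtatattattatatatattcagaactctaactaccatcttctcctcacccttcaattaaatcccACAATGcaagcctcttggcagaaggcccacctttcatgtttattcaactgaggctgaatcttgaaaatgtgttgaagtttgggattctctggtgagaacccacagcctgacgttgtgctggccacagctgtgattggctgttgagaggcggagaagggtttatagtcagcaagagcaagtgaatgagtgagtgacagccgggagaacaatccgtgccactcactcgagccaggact
Alpl, chr4:137796335-137796634, - strand: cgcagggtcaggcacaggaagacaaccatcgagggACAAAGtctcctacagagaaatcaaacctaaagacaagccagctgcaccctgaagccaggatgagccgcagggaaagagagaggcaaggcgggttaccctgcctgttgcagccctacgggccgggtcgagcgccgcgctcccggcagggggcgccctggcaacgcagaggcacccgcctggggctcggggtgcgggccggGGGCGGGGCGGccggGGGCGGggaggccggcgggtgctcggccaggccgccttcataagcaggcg
Runx2, chr17:44814578-44814877, - strand: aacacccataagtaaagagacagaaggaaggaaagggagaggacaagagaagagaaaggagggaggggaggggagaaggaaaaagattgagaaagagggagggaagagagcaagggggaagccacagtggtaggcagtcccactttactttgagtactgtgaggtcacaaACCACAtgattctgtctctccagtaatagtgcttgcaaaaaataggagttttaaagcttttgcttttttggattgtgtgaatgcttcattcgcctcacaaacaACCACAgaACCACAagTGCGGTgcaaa
The 4 low genes shown had none of these motifs in common. Acan held 3 GC boxes in a window of 74.0% G and C, Matn1 a RUNX core and a GC box, and Ibsp a single SOX core in a window of 46.3% G and C. The Alpl window held a SOX core and 3 GC boxes. Runx2 held 4 RUNX cores, 3 of them in its last 50 bases. Of the 8 windows of the members 3 held a SOX core, 3 a RUNX core and 4 a GC box, where 28.6%, 22.4% and 35.7% of all 32851 windows did. The windows with a SOX core were that of Ibsp and both windows of Alpl, so they do not stand for separate genes. The share of G and C was 45.3% to 74.0% in the member windows, with a median of 52.7% over all windows. A match is a run of letters in a window, not a site in use.

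Relatives of each gene showed how far the low pair 1 ratios ran through the families, and 31 were measured. Of these, 9 were at least 1.5-fold lower on both arrays of pair 1, beside 9.17% of all features. Another 6 were at least 1.5-fold higher on both, beside 5.55%. Limma's test at an adjusted p of 0.05 was passed by 0. The medians of the 31 relatives were 0.009, -0.08 and 0.001 on replicates 1 to 3. Averages over probes include any spot at the most frequent value.

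Among matrilins, Matn2, which is made in many connective tissues, read -4.34 and -4.23 in pair 1 and 0.78 in pair 2. Matn4 averaged -4.11 and -3.01 in pair 1 over its 2 probes, of which 1 was measured in pair 2, at -0.012. With Matn1, 3 of 4 matrilins were thus low on both arrays of pair 1. Thrombospondins, the family of Comp, were all at least 1.5-fold lower on both when probes were averaged. Thbs2 and Thbs4, of connective tissue and tendon, read -6.23 and -5.41, and -5.22 and -5.995, and their measured values in pair 2 were 1.75 and 1.90. Thbs3 averaged -0.80, -1.17 and -3.545 over probes that differed in size. The first read -1.47, -1.94 and -6.40, and the second -0.13, -0.41 and -0.69, within 1.5-fold in pair 1. Thbs1, like Thbs3 below 0 on all 3 arrays, averaged -2.44, -1.21 and -1.11. Its mean was -1.47 ± 0.33 (moderated SE, limma's adjusted p = 0.852). The first Thbs1 probe read -2.19 on replicate 1 and was at the most frequent value on the other arrays. The second read -2.69, -2.41 and -2.22.

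The other lecticans and link proteins, most of them of brain, lay between -1.73 and 0.97 in pair 1 when probes were averaged. Ncan, neurocan of the developing brain, averaged 0.005, 0.66 and -0.10 over 5 probes that differed in sign. Bcan, brevican, averaged -0.48, -0.53 and -2.20, and Vcan, versican, which is made in brain and connective tissue, -0.50, -1.73 and -0.31 over 4 probes. The Vcan probes also differed in sign. In pair 1 they read -0.92 and -3.40, -1.145 and -3.82, -1.17 and -1.39, and 1.23 and 1.70. Hapln2, a link protein of white matter, read 0.76, 0.97 and 2.07, with a mean of 1.47 ± 0.47 (moderated SE, limma's adjusted p = 0.852). Hapln3 and Hapln4 stayed between -0.66 and 0.24 on every array.

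Sox5 and Sox6, which act with Sox9 in cartilage and are also expressed in the developing cortex, averaged above 0 in pair 1. Sox5 averaged 2.00 and 1.22 in pair 1 and -0.87 in pair 2 over 4 probes, and Sox6 averaged 0.91, 2.70 and 0.53 over 3. The Sox5 probes ran from -3.99 to 0.83 in pair 2, and the Sox6 probes from 0.11 to 6.41 on replicate 2. Sox10, of neural crest and oligodendrocyte lineage, read -3.07 and -5.04 in pair 1 and had no measurement in pair 2. Sox8 read 0.28, 1.47 and 1.53, and Sox13 -0.003, 0.12 and -0.60. The other Runt genes, Runx1 and Runx3, averaged -0.90 and 1.03 on replicate 1 and -0.08 and 0.83 on replicate 2, and their partner Cbfb -0.90 and -0.35. In pair 2 these genes averaged -0.55, -0.295 and -0.36, where the Cbfb probes lay on opposite sides of 0, at -1.82 and 1.09. Sp8, a relative of Sp7 that acts in forebrain patterning, read 1.90 and 2.27 in pair 1 and -0.19 in pair 2. Sp5 read 0.33, -0.94 and 0.36, and Sp6, of tooth and skin, averaged 0.65, 0.68 and 2.01. In pair 1, 1 Sp6 probe read 2.13 and 1.70, and the others lay between -0.14 and 0.41.

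Of the acidic phosphoproteins related to Ibsp, Spp1 (osteopontin, also made outside bone) read -3.62 and -3.985 in pair 1 and 1.13 in pair 2. Dmp1, of osteocytes and dentine, read -3.19 and -2.955 in pair 1, with no measurement in pair 2. Mepe and Dspp, of osteocytes and teeth, were not low, at 2.11 for Mepe, which was measured on replicate 2 alone, and at 0.56 and 0.79 in pair 1 for Dspp. The alkaline phosphatases of gut and germ cells, Alpi, Akp3 and Alppl2, lay between -0.28 and 0.42 in pair 1, and at 1.77, 2.00 and 0.70 in pair 2. Phospho1, a phosphatase of mineralising cells, read 0.08, -1.14 and 0.38.

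**Figure D3:**
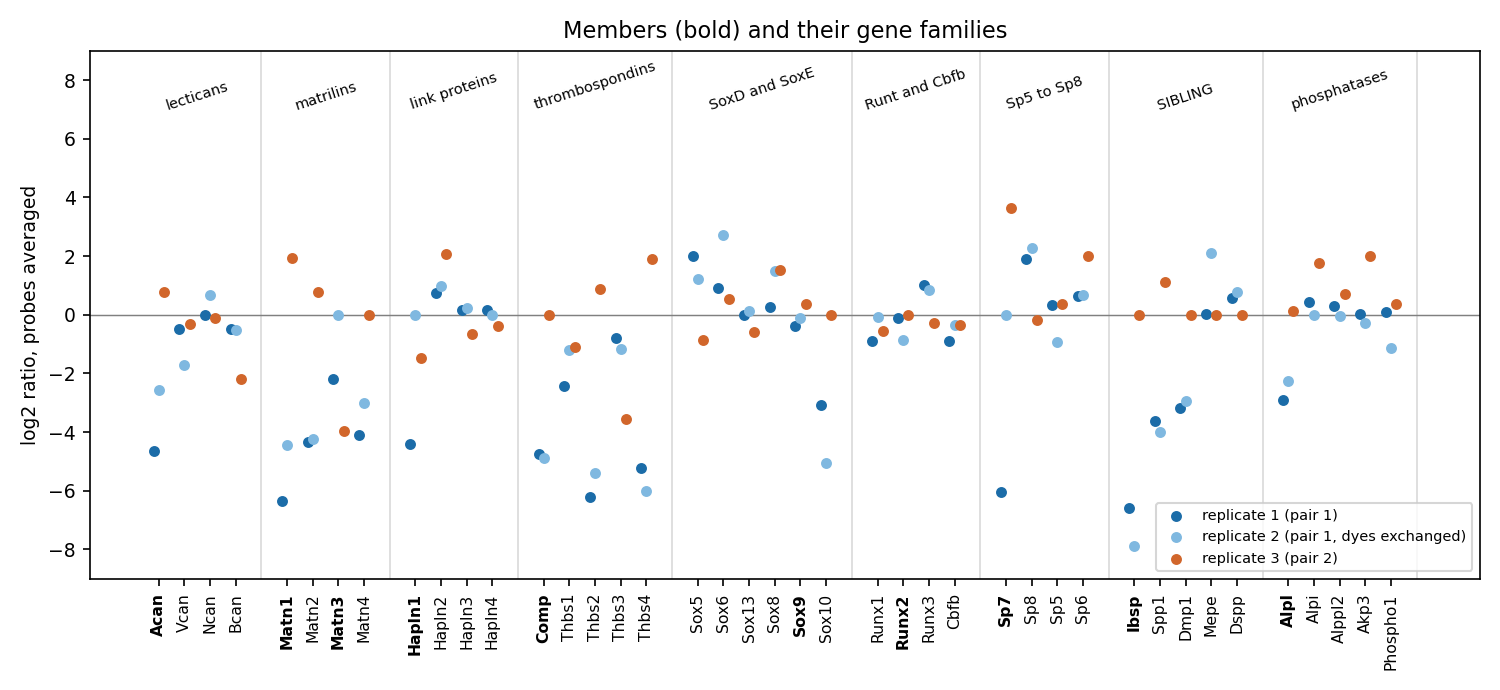
Log2 ratio (vertical axis, probes averaged) of the members, in bold, and of the measured genes of their families on each of the 3 arrays (colours). All 5 thrombospondins and 3 of 4 matrilins lie at least 1.5-fold below 0 on both arrays of pair 1. Ncan, Hapln3 and Hapln4 lie between -0.66 and 0.66 on every array, where the Ncan probes differ in sign.

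Other genes of cartilage and bone had medians below 0 in pair 1 too, with more mixed values. Of all features, 9.17% were at least 1.5-fold lower and 5.55% at least 1.5-fold higher on both arrays of pair 1. Of 37 other cartilage genes 17 were at least 1.5-fold lower and 4 higher on both arrays, with medians of -1.06 and -0.59, and the median in pair 2 was 0.001. Cnmd, chondromodulin, read -6.34 and -5.41 in pair 1 and -0.80 in pair 2. Fmod, fibromodulin, read -4.73, -5.09 and 1.54, and Epyc, epiphycan, -4.01 and -4.26 with no measurement in pair 2. Of 34 other bone genes 19 were at least 1.5-fold lower and 2 higher on both arrays, with medians of -1.41, -0.99 and 0.30 on replicates 1 to 3. Ifitm5, an osteoblast membrane protein, read -5.71 and -5.635 in pair 1 and 4.40 in pair 2. Postn, periostin, averaged -4.47, -4.17 and 0.35, and Cthrc1 read -4.28, -4.135 and 1.75. None of these cartilage or bone genes passed limma's test, with a lowest adjusted p of 0.852 in either list.

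Markers of meninges and fibroblasts and of muscle were low in pair 1 beside the members, while those of skin and endothelium were mixed. The 1.5-fold shares of all features were 9.17% lower and 5.55% higher on both arrays of pair 1. In pair 2 they were 22.3% lower and 19.5% higher. All 20 genes of meninges and fibroblasts and 19 of 20 genes of skeletal muscle were at least 1.5-fold lower on both arrays of pair 1. Their medians were -3.23 and -3.34 for meninges and fibroblasts and -5.43 and -5.51 for muscle. Values on replicate 1 ran from -9.72 to -1.43 for muscle. In pair 2 the medians were 0.63 and 0.11. The muscle gene Myl1, a myosin light chain, read -9.72, -9.41 and 0.66, and Mgp, the matrix Gla protein of cartilage and vessels, -5.68, -7.01 and 0.62. Ptgds, like Mgp of the list of meninges and fibroblasts, read -5.50, -5.35 and -2.41. It was the 1 gene of that list at least 1.5-fold lower in pair 2, where 12 were at least 1.5-fold higher. Of 17 skin genes 7 were at least 1.5-fold lower on both arrays of pair 1, 0 were at least 1.5-fold higher and 3 were above 0 on both. Their medians were -1.02, -0.555 and 2.35, and 15 of 17 were at least 1.5-fold higher in pair 2. Krt18 read -6.25 and -4.615 in pair 1 and 2.65 in pair 2. Krtdap, of keratinocytes, read -2.77 and -3.15 in pair 1 and 7.20 in pair 2. Of 15 endothelial genes 7 were at least 1.5-fold lower on both arrays of pair 1 and 0 at least 1.5-fold higher, with medians of -0.84, -1.11 and 0.26.

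Lists of cortical neurons and progenitors had medians above 0 in pair 1, where 11 of 14 neuron genes but only 8 of 15 progenitor genes were above 0 on both arrays. Of 14 cortical neuron genes 8 were at least 1.5-fold higher on both arrays and 0 lower, beside 5.55% and 9.17% of all features. The medians of the neuron genes were 1.57, 1.33 and 0.06. Tbr1, of deep-layer neurons, read 3.90, 4.235 and 0.33. Of 15 progenitor genes 7 were at least 1.5-fold higher and 1 lower on both arrays, and 3 were below 0 on both, with medians of 0.61, 1.08 and -0.44. In none of these 6 lists did a gene pass limma's test at an adjusted p of 0.05. The part of other cell types in the ratios of the 10 genes was not tested.

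**Figure D4:**
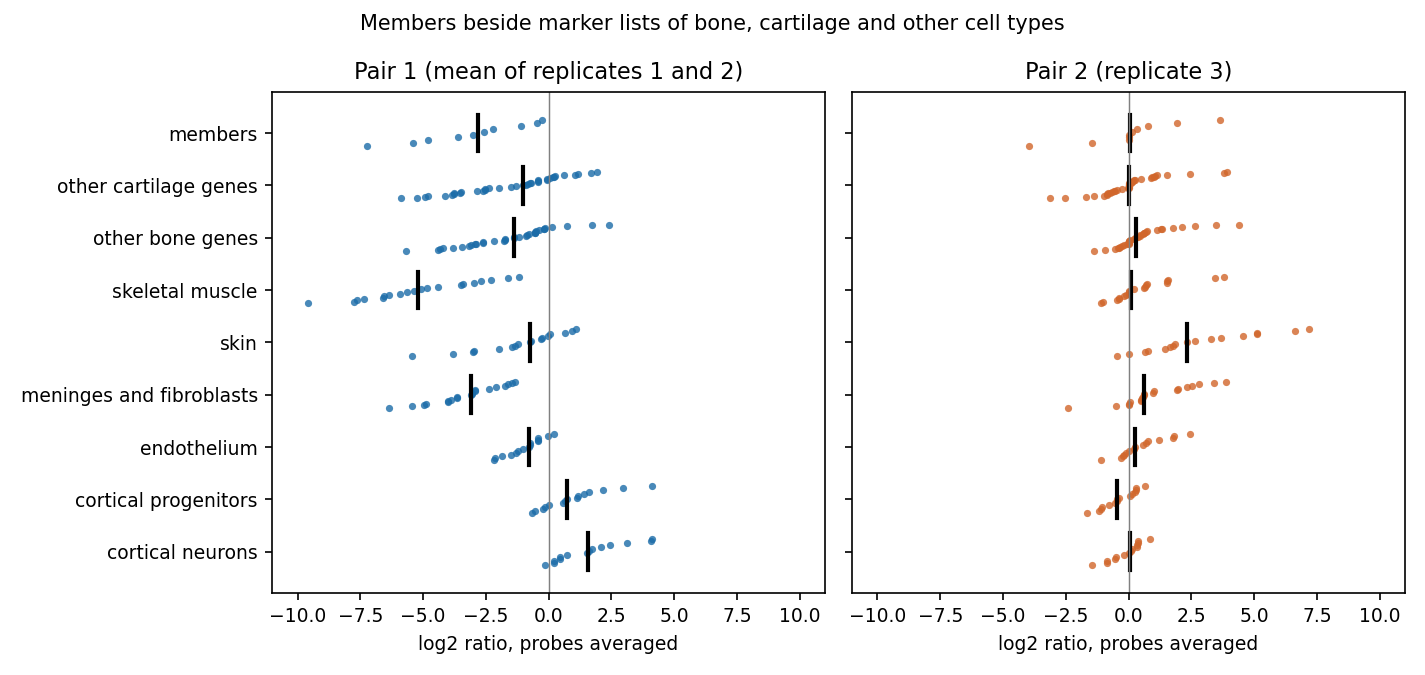
Log2 ratio of each gene (points, probes averaged) in the lists named on the left, with the list's median as a bar, for pair 1 (left panel) and pair 2 (right panel). Cartilage, bone, muscle, endothelium, and meninges and fibroblasts have medians below 0 in pair 1, cortical neurons and progenitors above 0. Skin has the highest median in pair 2.

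The genes with ratios nearest to the members' median profile were sought among 12518 genes measured by all their probes on all 3 arrays, by the root mean square difference over these 3 arrays. The chondrocyte members had a median profile, over measured values, of -4.54, -4.67 and 0.35. Nearest to it were Cavin2, Matn2, Aqp1, Serpinf1 and Des, at differences of 0.31 to 0.49. The osteoblast members' profile, -4.48, -2.24 and 1.88, rests on 2 measured genes in pair 2. Nearest to it were Krt33b, Pamr1, Emilin3, Col11a2 and Ctsk, at 0.22 to 0.67. Matn2 read -4.34, -4.23 and 0.78, and Krt33b -4.38, -2.585 and 2.03.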

How the data were processed

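Cortical RNA, purified by RNeasy columns, was turned into cDNA and labelled with a Genisphere kit, per the labels' protocols. The mutant carried Cy5 on replicates 1 and 3 and Cy3 on replicate 2, per the labels. The authors' deposited values were read as log2 ratios centred by array, on the evidence of the values. The numerator, scanner, background correction and normalization are not given in the sources used here, and no spot intensities were used. The array medians were 0.009, 0 and 0.001.

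Of 38880 probes, 30457 carried a gene symbol of the platform annotation. Older symbols were updated through RefSeq names (GRCm38.p6), and probes of a gene were averaged. Spots at the most frequent value kept their deposited values in these averages and in the main fit. Replicates 1 and 2 were averaged to 1 pair and tested with replicate 3 in limma 3.58.1 under R 4.3.3 (lmFit, eBayes, Benjamini-Hochberg over 28332 features, 2.08 total degrees of freedom). Nothing says that the pairs came from separate litters, so p-values measure the spread between these 2 pairs. The procedure was tested on simulated data. Recovery of added effects was required only where the spread between pairs was far smaller than in these data. That test does not show what the fit could find at the spread of these data. The number of arrays limits the precision.

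The members, gene lists and tests were chosen with earlier results of these data known. Named are the 10 members, all measured relatives, up to 3 genes per other list, those with the largest values of 1 sign on both arrays of pair 1, and the 5 genes nearest to each profile. Alternatives covered probes, scaling, dye, spots at the most frequent value, fold thresholds and each array left out. Promoter windows are from RefSeq (GRCm38.p6), and figures were drawn with matplotlib 3.10.9.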

Additional observations from a re-analysis of the deposited data

How the results depend on the processing

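The count of 0 features past limma's adjusted p of 0.05 held under each alternative fitted, with 578 to 2021 features at an unadjusted p of 0.05. The 2021 came from the fit with a dye term. That fit and the fit of 3 arrays as separate evidence, with 1238, took replicates 1 and 2 as independent, although these share their RNAs. The pair as a random block could not be fitted, since the method needs more than 3 arrays. Each array value is itself a ratio of both genotypes, so the fit against 0 was already paired. No groups share replicate numbers, so no further pairing was possible. Under alternatives 0 of 76 values of the 10 genes passed an adjusted p of 0.05, the lowest being 0.688 (limma with a dye term). Of these values 67 kept their sign. The other 9 were of Sox9, which lay near 0, and of Sp7, whose mean of 0.30 lies between large values on opposite sides of 0. Sox9 averaged -0.052 over the 3 arrays, -0.068 with a dye term, and -0.26 to 0.12 with 1 array left out. Sp7 averaged -0.81 over the 3 arrays, -0.60 with a dye term, -1.21 over measured spots, and -3.02 to 1.81 with 1 array left out. The count of 5 members at least 1.5-fold lower in pair 1 was 6 without replicate 1 and 8 without replicate 2. Both alternatives were added once the values were known. Each rests on a single array of pair 1, for which no share of all features was counted. The number of members lower in pair 1 and higher in pair 2 went from 2 to 1 at 2-fold, 4 when any value off 0 counted, and 2 to 3 on leaving out an array of pair 1. The members' median on replicate 2 was -4.46 over measured spots alone. The 808 features 1.5-fold to one side on all arrays became 272 at 2-fold, 1218 by probe, and 2175 to 4169 with any 1 array dropped, which leaves fewer arrays to pass.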

Other observations

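Some genes of the cartilage and bone lists read on the other side of 0 from the members in pair 1, and were picked out after their values were seen. Those at least 1.5-fold higher on both arrays were Pax9, Xylt1, Zbtb20 and Scin of the cartilage list and Dlx5 and Dlx6 of the bone list. Of all features, 5.55% were this high on both arrays. Dlx5 and Dlx6, homeobox genes of bone that also specify forebrain interneurons, averaged 1.19 and 2.255, and 2.225 and 2.55, in pair 1, and -0.36 and -0.33 in pair 2. Zbtb20, a factor of growth plate cartilage and of hippocampus, averaged 1.23, 2.12 and -1.68. Xylt1, which starts the sugar chains of proteoglycans, was the only one of the 6 above 0 on all 3 arrays, at 0.93, 1.41 and 2.44. Over both pairs it averaged 1.81 ± 0.49 (moderated SE), with limma's adjusted p = 0.852.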
